A study of Mus musculus with 4 samples.

Results

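The genes described here are the metallothioneins and the zinc-response genes of female mouse embryonic stem cells (ESCs): the metallothioneins *Mt1*, *Mt2* and *Mt3*, the zinc exporter *Slc30a1*, the zinc importer *Slc39a10* and the zinc-sensing transcription factor *Mtf1*. They were chosen by symbol, as 6 genes of the 9779 with a value, and the choice was made with their response to GSK-J4 in these same libraries known. Their GSK-J4 values are therefore given as a description and support nothing by themselves.

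RNA was measured by RNA-Seq in the LF2 line, a single female ESC line of strain 129/J, with 1 library for each of 4 conditions. PBS+DMSO cells received only the vehicles, and PBS+GSK-J4 cells received 10 μM GSK-J4, a small-molecule inhibitor of histone demethylases. AA+DMSO cells received 50 μg/ml L-ascorbic acid (AA, vitamin C), and AA+GSK-J4 cells received both compounds at those doses, all for 24 hr. All cells had been grown on feeder cells and passaged without them before treatment. With 1 library per condition, no difference has a replicate check and no p-value is given. Levels are FPKM, the fragments mapped to a gene scaled by its exon length and by the mapped fragments of the library, and differences are log2 ratios of FPKM + 1, which understate the change of genes at low levels.

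Metallothioneins are small cysteine-rich proteins that bind zinc and copper and buffer the free metal in the cytosol. When free zinc rises, the zinc-finger protein MTF1 binds short DNA motifs called metal response elements and raises transcription of metallothionein genes and of *Slc30a1*, whose product ZnT1 pumps zinc out of the cell. Proteins of the Slc39 (ZIP) family, such as ZIP10 encoded by *Slc39a10*, carry zinc into the cytosol, and transcription of *Slc39a10* is known to be held down by MTF1 when zinc is plentiful. *Mt1* and *Mt2* are expressed in most tissues and respond to metals, glucocorticoids and oxidants, while *Mt3* is best known from brain and *Mt4* from stratified epithelium.

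The promoters of 4 of these genes are shown because the metal response element links them to MTF1, and because *Mt1*, *Mt2* and *Mt3* lie side by side yet had opposite GSK-J4 ratios. Each sequence runs from 250 bases before to 50 bases after a RefSeq gene start on GRCm38.p6, and all are on the plus strand. The submitters' processing notes call this build mm10. Capitals mark matches to the core motifs TGCACNC and TGCGCNC searched on both strands, so that a match on the other strand appears as its reverse complement. Overlapping matches were each counted. *Mt1* lies at chr8:94178839-94179138, *Mt2* at chr8:94172368-94172667, *Mt3* at chr8:94152357-94152656 and *Slc30a1* at chr1:191906531-191906830.
Mt1: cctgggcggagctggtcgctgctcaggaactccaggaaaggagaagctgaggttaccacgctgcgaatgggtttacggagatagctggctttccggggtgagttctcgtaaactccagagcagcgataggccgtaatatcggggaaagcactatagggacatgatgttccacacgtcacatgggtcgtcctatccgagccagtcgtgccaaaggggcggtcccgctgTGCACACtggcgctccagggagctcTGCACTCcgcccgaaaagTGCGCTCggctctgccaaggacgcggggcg
Mt2: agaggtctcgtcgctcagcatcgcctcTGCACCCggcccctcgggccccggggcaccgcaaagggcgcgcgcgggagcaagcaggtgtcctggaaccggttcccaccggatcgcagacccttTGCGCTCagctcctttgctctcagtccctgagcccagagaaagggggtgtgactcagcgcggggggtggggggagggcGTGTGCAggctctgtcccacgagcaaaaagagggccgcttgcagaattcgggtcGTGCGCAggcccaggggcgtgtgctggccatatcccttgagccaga
Mt3: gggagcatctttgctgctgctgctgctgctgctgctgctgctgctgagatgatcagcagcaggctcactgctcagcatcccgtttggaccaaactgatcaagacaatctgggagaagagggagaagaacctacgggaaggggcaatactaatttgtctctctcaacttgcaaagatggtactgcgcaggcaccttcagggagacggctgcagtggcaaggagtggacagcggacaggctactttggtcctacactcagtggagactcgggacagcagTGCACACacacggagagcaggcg
Slc30a1: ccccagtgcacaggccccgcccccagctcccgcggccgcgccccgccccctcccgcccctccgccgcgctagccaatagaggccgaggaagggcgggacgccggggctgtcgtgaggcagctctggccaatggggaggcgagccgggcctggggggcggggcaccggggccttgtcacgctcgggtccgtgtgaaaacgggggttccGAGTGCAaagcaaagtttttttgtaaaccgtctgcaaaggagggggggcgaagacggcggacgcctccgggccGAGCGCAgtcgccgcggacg

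Counting the start as +1 and the base before it as -1, the *Mt2* promoter held 4 matches, beginning at -223, -128, -50 and +5. The *Mt1* promoter held 3 matches, at -23, +3 and +21. The *Slc30a1* promoter held 2, at -43 and +31, while the *Mt3* promoter held 1, at +28. No match was found in the *Mtf1* promoter or in either of the *Slc39a10* promoters listed by RefSeq, which says only that these letters are not in those windows. Of all 32851 RefSeq mouse promoters of the same length, 25.7% held at least 1 match, 7.11% at least 2, 1.97% at least 3 and 0.517% at least 4. The positions depend on the start used. The annotated *Mt2* transcript described below starts later, at chr8:94172664, so the match at +5 lies before that start. The starts used in these cells were not measured. Bases outside the windows were not searched, so the counts may leave out elements of these genes. A match is a description of the sequence and does not show binding, since no binding was measured here.

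The libraries were those of ESCs by their markers. All 8 ESC markers examined had values, and their lowest level in any library was 23.5 FPKM, for *Tfcp2l1* in PBS+GSK-J4. Where 4 values are listed, they follow the order PBS+DMSO, PBS+GSK-J4, AA+DMSO, AA+GSK-J4. *Pou5f1* (Oct4) stood at 867, 510, 800 and 480 FPKM. Of 10 feeder fibroblast markers, 4 had a value, and their summed level was 21.0, 30.2, 19.5 and 26.2 FPKM. Much of that sum was *Acta2*, at 12.9, 21.4, 12.0 and 17.8 FPKM, and in each GSK-J4 comparison 3 of the 4 were higher and 1 was lower, *Thy1* without AA and *Col1a2* with AA. The summed ESC markers were lower with GSK-J4, at 1792, 1085, 1717 and 1071 FPKM. *Utf1*, 1 of them, was lower by over 2-fold, at 167, 55.2, 172 and 49.6 FPKM. Genes of like level were also lower. The marker log2 ratios had a median of -0.55 without AA and -0.50 with AA. The median ratio of the genes nearest in level to each marker lay from -0.65 to -0.35 without AA. With AA it lay from -0.60 to -0.40. Beside those genes, the ratios of *Pou5f1*, *Nanog* and *Utf1* were lower in both comparisons, and those of *Sox2*, *Esrrb* and *Tfcp2l1* were higher. *Klf4* was lower without AA only, and *Dppa5a* with AA only. The part of either list in the results that follow was not tested. In bulk RNA, fewer cells of a type and less RNA per cell cannot be told apart. The FPKM summed over all genes were 360621, 275575, 342327 and 271205, and the log2 ratio of GSK-J4 over DMSO had a median over all genes of -0.17 without AA and -0.16 with AA.

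GSK-J4 was accompanied by higher *Mt1* and *Mt2* and by lower *Mt3* and *Slc39a10*, both without and with AA. *Slc30a1* was higher by less than 2-fold, and *Mtf1* stayed close to its control level. Without AA, 2 of the 6 genes were higher by 2-fold or more, where 4.96% of 9196 genes were, and 2 were lower by as much, where 3.5% were. With AA the same 4 genes passed 2-fold in the same directions, against 4.13% of 9139 genes higher and 3.38% lower. Because the genes were chosen with these ratios known, nothing is read from the counts. After centring on the median of all genes, 618 genes were higher and 157 lower without AA, in place of 456 and 322, and 511 were higher and 152 lower with AA, in place of 377 and 309. Scaling to the same total gave 804 higher and 96 lower without AA, and 626 higher and 99 lower with AA. The 6 genes had a median log2 ratio of 0.17 without AA and of 0.32 with AA.

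*Mt1*, at chr8:94178995-94180329 in the deposited tables, has 3 exons in its annotated transcript of 549 nt. Its level was 228, 1099, 279 and 1309 FPKM. Both GSK-J4 libraries therefore lay far above both DMSO libraries. Among the 9779 genes with a value, ordered by level, *Mt1* moved from place 243 to place 35 without AA. With AA it moved from place 167 to place 25. The FPKM was 4.82-fold higher with GSK-J4 without AA and 4.70-fold higher with AA. The log2 ratios were 2.26 and 2.23, placing *Mt1* 21st from the top of 9196 genes and 19th from the top of 9139.

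*Mt2*, at chr8:94172462-94173587, likewise has 3 exons, in a transcript of 511 nt. It was the most abundant of the 6 genes in every library, with 365, 1528, 462 and 1877 FPKM. In AA+GSK-J4 it was the 6th most abundant of the 9779 genes with a value, and in PBS+GSK-J4 the 16th. Its places in the DMSO libraries were 130 without AA and 100 with AA. Its level was 4.19-fold higher with GSK-J4 without AA and 4.06-fold higher with AA, log2 ratios of 2.06 and 2.02.

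*Mt1* and *Mt2* together made up 0.164% of the summed FPKM with the vehicles alone and 0.953% with GSK-J4. With AA the share was 0.216% in DMSO and 1.17% in GSK-J4. The pair thus took a larger share of the FPKM summed over the genes with a value in both GSK-J4 libraries. The *Mt2* level exceeded that of *Mt1* in every library, by a ratio of 1.60, 1.39, 1.66 and 1.43, so the gap in ratio was narrower in both GSK-J4 libraries. Duplicate reads had been removed from single-end data, which can lower the level of short and abundant transcripts such as these, and the size of that effect is not known here.

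*Mt3*, at chr8:94152716-94154134, has a transcript of 536 nt with 3 exons, close in length to those of *Mt1* and *Mt2*. Its level was 16.7, 3.22, 15.1 and 4.36 FPKM. Here the GSK-J4 libraries lay below both DMSO libraries. The FPKM was 5.20-fold lower without AA and 3.47-fold lower with AA, log2 ratios of -2.07 and -1.59. *Mt3* was the 4th gene from the bottom of 9196 without AA and the 33rd from the bottom of 9139 with AA. The level of *Mt1* relative to *Mt3*, per length, was 13.6 and 18.4 in the DMSO libraries, without and with AA, against 342 and 300.3 in the GSK-J4 libraries.

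**Figure D1:**
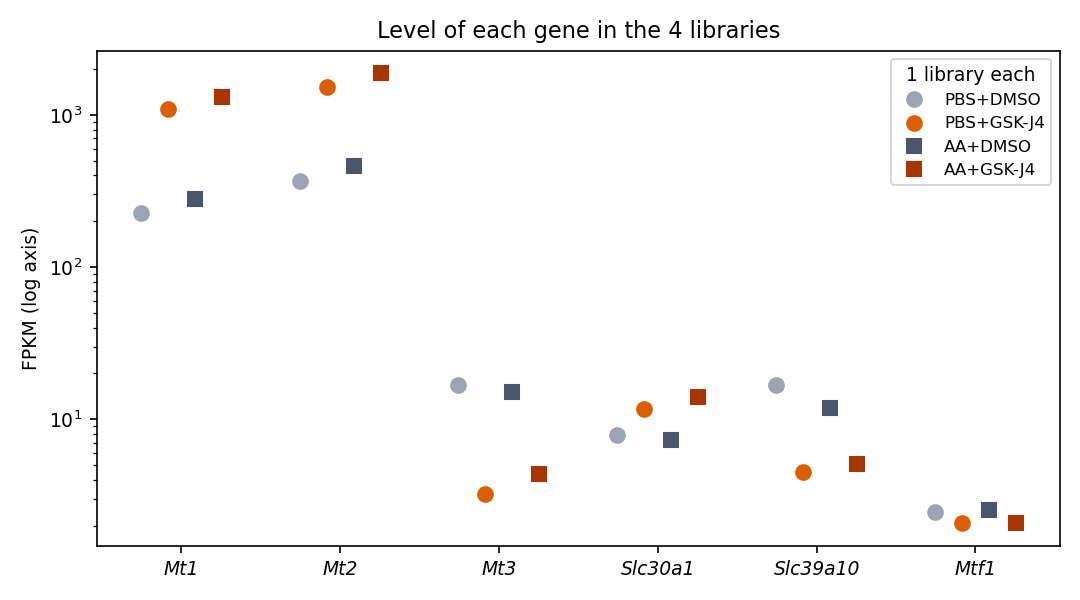
Level in FPKM (log axis) of the 6 genes in the 4 libraries, with 1 point per library, circles without AA and squares with AA, grey for DMSO and orange for GSK-J4. The GSK-J4 points of *Mt1* and *Mt2* lie at 1099 FPKM or more and the DMSO points at 462 FPKM or less, while the GSK-J4 points of *Mt3* and *Slc39a10* lie under their DMSO points and those of *Mtf1* are all between 2 and 3 FPKM.

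The 4 metallothionein genes of the mouse lie in a row on the plus strand of chromosome 8, in the order *Mt4*, *Mt3*, *Mt2*, *Mt1*, across 43.1 kb. *Mt4*, the remaining gene of the row, was low in every library, with 2.42, 2.36, 2.86 and 3.61 FPKM. Its GSK-J4 log2 ratios of -0.03 and 0.26 were small beside those of the other genes of the row. *Mt4* was added after its values were seen, as were the neighbours that follow.

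Among genes with a value, 2 others lay within 100 kb of the row. *Ogfod1* had 12.9, 9.80, 11.7 and 9.70 FPKM, and the tables give it 1 locus together with *Bbs2*, which had 13.5, 10.5, 13.1 and 6.75 FPKM, so their reads may overlap. The GSK-J4 log2 ratios were -0.36 and -0.25 for *Ogfod1* and -0.34 and -0.86 for *Bbs2*, below 2-fold in each case. Within the row itself, the neighbours *Mt3* and *Mt2*, whose loci start at -26.3 kb and -6.53 kb from the *Mt1* start, had GSK-J4 ratios of opposite sign.

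**Figure D2:**
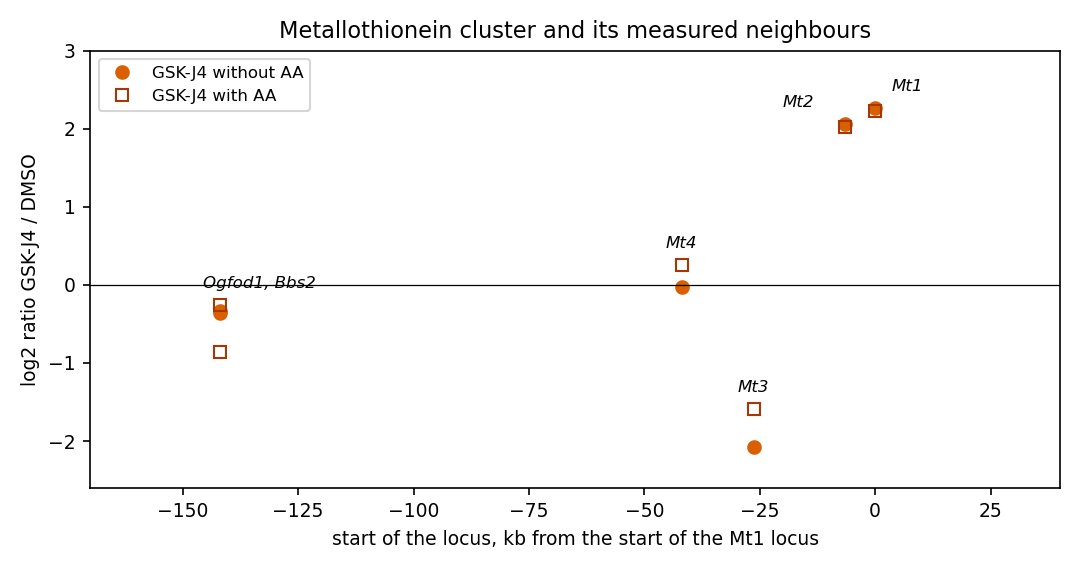
GSK-J4 over DMSO log2 ratio of FPKM + 1 of the 4 metallothionein genes and their 2 neighbours with a value within 100 kb, against the distance in kb of each locus start from the *Mt1* start, with circles without AA and squares with AA. *Mt1* and *Mt2* lie between 2.02 and 2.26, *Mt3* lies at -2.07 and -1.59, and *Mt4* lies between -0.03 and 0.26; *Ogfod1* and *Bbs2* share 1 position, where the lowest square, at -0.86, is *Bbs2*.

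*Slc30a1*, which encodes the plasma membrane exporter ZnT1, lies at chr1:191906789-191913227 and has 2 exons. Its level was 7.92, 11.7, 7.35 and 14.0 FPKM. Both GSK-J4 libraries lay above both DMSO libraries, by 1.48-fold without AA and 1.91-fold with AA. The log2 ratios of 0.51 and 0.85 fell short of 2-fold, although the ratio with AA passed 2-fold when the ratios were centred on the median of all genes (1.005), by upper quartile scaling (1.08) by scaling to the same total (1.16) or relative to the 300 genes nearest in level (1.02).

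*Slc39a10*, which encodes the importer ZIP10, lies at chr1:46807385-46853586 on the minus strand and has 10 exons. Its level was 16.8, 4.47, 11.8 and 5.05 FPKM, so that the GSK-J4 libraries lay below the DMSO libraries. The FPKM was 3.75-fold lower with GSK-J4 without AA and 2.33-fold lower with AA, log2 ratios of -1.70 and -1.08. It was the 20th gene from the bottom without AA and the 214th with AA. The ratio with AA was just past 2-fold, and it stood at -0.92 after centring on the median of all genes. Of the 6 genes, the ratio that passed 2-fold by least was thus that of *Slc39a10* with AA, and the one that came nearest without passing was that of *Slc30a1* with AA.

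The exporter and the importer changed places in their relative level. *Slc39a10* stood at 2.12 times the *Slc30a1* level in PBS+DMSO and 1.61 times in AA+DMSO, per length. In the GSK-J4 libraries it stood at 0.381 and 0.360 times that level, without and with AA.

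*Mtf1*, at chr4:124802373-124850798, encodes the zinc sensor and has 11 exons. Its level was 2.45, 2.08, 2.54 and 2.07 FPKM, the lowest of the 6 genes in every library. Both GSK-J4 values were below both DMSO values, but by small amounts, with log2 ratios of -0.16 and -0.20. Without AA the sign turned under centring on the median of all genes (0.01), upper quartile scaling (0.03) and scaling to the same total (0.10), and with AA it turned under scaling to the same total (0.03). RNA of *Mtf1* does not measure the activity of the protein, which is set by zinc.

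Across the 4 libraries, *Mt1*, *Mt2* and *Slc30a1* had both GSK-J4 values above both DMSO values, and *Mt3*, *Slc39a10* and *Mtf1* had both below. Such order was common, since 26.9% of 9363 genes were above and 50.3% were below, so it is no result about these genes. The scatter of GSK-J4 ratios shows how far each gene lay from the bulk.

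**Figure D3:**
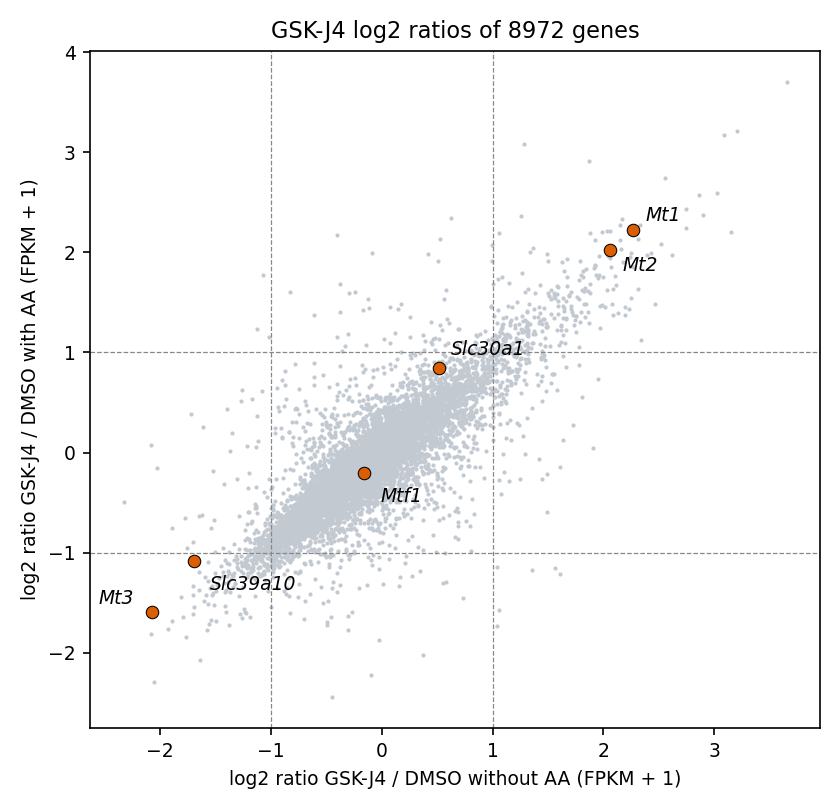
GSK-J4 over DMSO log2 ratio of FPKM + 1 without AA (x axis) and with AA (y axis) for the 8972 genes kept in both comparisons, 1 grey point per gene, the 6 genes described in orange and dashed lines at 2-fold. *Mt1* and *Mt2* lie at the upper right edge near 2 on both axes, *Mt3* and *Slc39a10* at the lower left, *Slc30a1* short of the 2-fold lines at 0.51 and 0.85, and *Mtf1* within the bulk.

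AA alone was accompanied by small differences in these genes. The comparisons of AA with PBS set values of separate tables side by side, for which no common scaling is stated. None of the 6 genes passed 2-fold without GSK-J4, where 0.565% of 8843 genes were higher and 0.735% lower, and none passed it with GSK-J4, where 0.512% of 9180 genes were higher and 0.599% lower. The 6 genes had a median log2 ratio of -0.03 without GSK-J4 and 0.25 with GSK-J4, beside -0.05 and -0.02 for all genes.

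*Mt1* was 1.22-fold higher with AA in DMSO and 1.19-fold higher with AA in GSK-J4, log2 ratios of 0.29 and 0.25. *Mt2* was 1.27-fold and 1.23-fold higher, log2 ratios of 0.34 and 0.30. Both genes were therefore higher with AA at either setting of GSK-J4, though far less than with GSK-J4, and their highest levels were in the AA+GSK-J4 library. The spread of AA log2 ratios over all genes had an SD of 0.27 without GSK-J4 and 0.26 with it, which is near the size of the *Mt1* and *Mt2* ratios. *Mt1* stood 598th from the top of 8843 genes without GSK-J4 and 687th of 9180 with it, and *Mt2* stood 480th and 546th.

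*Mt3* had AA log2 ratios of -0.13 in DMSO and 0.35 in GSK-J4. *Slc39a10* had -0.47 and 0.15, and *Slc30a1* had -0.10 and 0.24. For these genes the sign of the AA ratio differed with GSK-J4. *Mtf1* had 0.03 and -0.003, next to no difference. The GSK-J4 and AA comparisons share libraries, so these values are set side by side and not treated as separate evidence.

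Of the 13 zinc transporter genes with a value besides *Slc30a1* and *Slc39a10*, 1 passed 2-fold in either direction in each GSK-J4 comparison, or 7.69%, near the 8.46% of all genes without AA and 7.51% with AA. Of 10 Slc30 exporter genes listed, 7 had a value, and none was at least 2-fold higher with GSK-J4 in either comparison. Of all genes, 4.96% were at least 2-fold higher without AA and 4.13% with AA, so this count of 0 is not read as a result. *Slc30a1*, among the 7, passed 2-fold with AA in 4 of 9 alternatives. The median GSK-J4 log2 ratio of the 7 was 0.17 without AA and 0.08 with AA, beside -0.17 and -0.16 for all genes. *Slc30a6*, which encodes a transporter of the Golgi region, had 1.99, 3.48, 1.48 and 0.010 FPKM. Its GSK-J4 log2 ratio without AA was 0.58, and with AA it was -1.30, and the latter rests on the near-zero value in AA+GSK-J4. *Slc30a4*, chosen after its values were seen, had 1.22, 2.24, 1.30 and 2.35 FPKM and a log2 ratio of 0.54 in both comparisons.

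Of 14 Slc39 importer genes listed, 8 had a value, and their GSK-J4 log2 ratios had a median of -0.08 without AA and of 0.08 with AA. Only *Slc39a10* was at least 2-fold lower in either comparison. That gene was chosen with its ratio known, and with AA it was under 2-fold in 5 of 9 alternatives. Of all genes, 3.5% were at least 2-fold lower without AA and 3.38% with AA, and 4.96% and 4.13% were higher. The counts are not read as a result. *Slc39a11* was at least 2-fold higher without AA, with 1.96, 6.17, 5.07 and 5.79 FPKM. The PBS+DMSO library was the low one, and the log2 ratio without AA was 1.28, and with AA it was 0.16. *Slc39a7* and *Slc39a4*, chosen after their values were seen, had higher levels. *Slc39a7*, an endoplasmic reticulum zinc transporter, had 60.6, 44.8, 55.8 and 43.3 FPKM, log2 ratios of -0.43 and -0.36. *Slc39a4*, the intestinal zinc importer, had 21.5, 28.3, 24.5 and 31.6 FPKM, log2 ratios of 0.38 and 0.36. *Slc39a13*, likewise chosen after its values were seen, had 1.22, 1.81, 1.40 and 3.78 FPKM. Its log2 ratio with AA was 0.993, and it passed 2-fold after centring on the median (1.15).

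**Figure D4:**
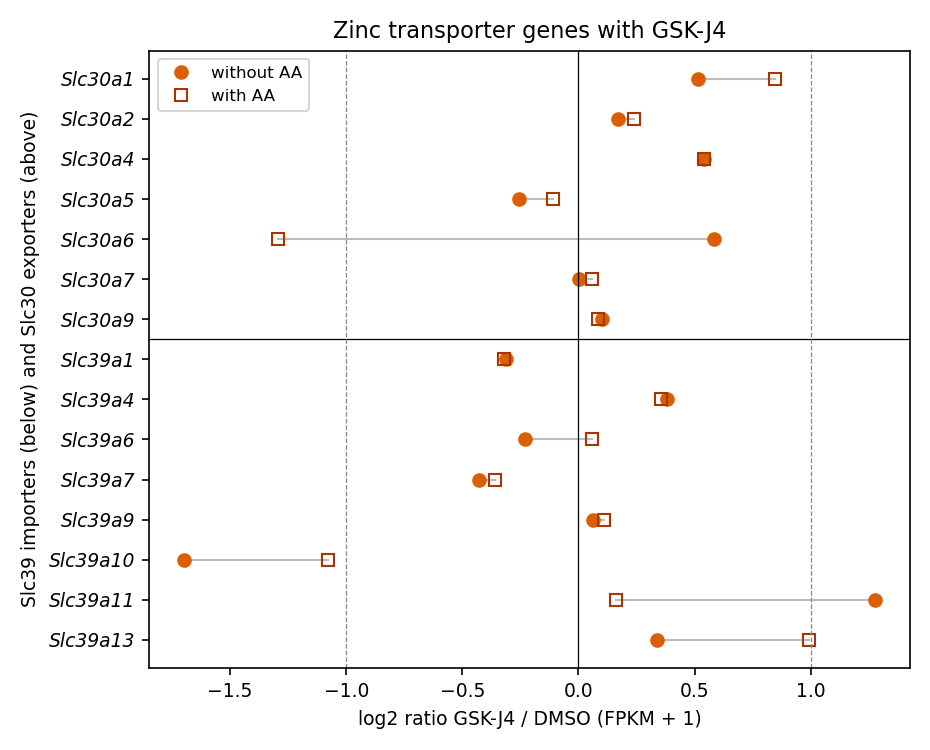
GSK-J4 over DMSO log2 ratio of FPKM + 1 for each zinc transporter gene with a value, 7 Slc30 exporters above the horizontal line and 8 Slc39 importers below it, with circles without AA, squares with AA and dashed lines at 2-fold. *Slc39a10* is past the lower 2-fold line in both comparisons, *Slc30a6* passes it with AA alone, *Slc39a11* passes the upper line without AA alone, and the other points lie between the lines.

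Further genes known to respond to MTF1 were counted from a list of 8 symbols, of which 5 had a value. *Selenow* and *Sepw1*, both listed, are symbols of the same gene, which had its value as *Sepw1*. *Slc40a1* is also in the list of iron-handling genes below. Of all genes, 4.96% were at least 2-fold higher without AA and 4.13% with AA. The median GSK-J4 log2 ratio of the 5 was -0.16 and 0.13, beside -0.17 and -0.16 for all genes. Of the 5, 1 was at least 2-fold higher without AA and none with AA. *Csrp1*, which encodes a zinc-binding LIM protein, was that gene, with 20.2, 43.9, 19.0 and 35.8 FPKM and log2 ratios of 1.08 and 0.88. With AA it passed 2-fold in 4 of 9 alternatives, among them centring on the median (1.04). The *Csrp1* levels with GSK-J4 lay above both DMSO levels, in the same direction as *Mt1* and *Mt2* but by a smaller ratio.

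None of the 11 copper-handling genes with a value, of 13 listed, passed 2-fold with GSK-J4. Of all genes, 8.46% passed it without AA and 7.51% with AA, so a count of 0 among 11 is not read as a result. The median log2 ratio over all genes was -0.17 without AA and -0.16 with AA. That of the 11 copper-handling genes was -0.04 and -0.01. *Atox1*, a copper chaperone and the most abundant of them, had 271, 279, 258 and 224 FPKM. Its log2 ratios were 0.04 and -0.20, and both moved with the scaling. Without AA the ratio reached 0.43 by scaling to the same total and 0.71 relative to the 300 genes nearest in level. With AA its sign turned under upper quartile scaling (0.05), scaling to the same total (0.13) and relative to the 300 nearest genes (0.40). *Slc31a2*, a copper transporter gene chosen after its values were seen, had 5.70, 12.4, 4.58 and 9.21 FPKM, an FPKM ratio of 2.18 without AA and 2.01 with AA. With 1 added to each FPKM its log2 ratios were 0.9997 and 0.87, under 2-fold, and centring on the median took both past it (1.17 and 1.03), so the count of 0 depends on these settings.

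None of the 10 iron-handling genes with a value, of 13 listed, passed 2-fold either. The share of all genes was again 8.46% without AA and 7.51% with AA, so this count of 0 is not read as a result. The median GSK-J4 log2 ratio of the 10 was -0.28 without AA and -0.20 with AA, beside -0.17 and -0.16 for all genes. *Ftl1*, the ferritin light chain that stores iron, had 1079, 896, 1165 and 1090 FPKM. Per length, *Mt1* and *Mt2* lay above *Ftl1* in both GSK-J4 libraries and below it in both DMSO libraries. The *Ftl1* log2 ratios of -0.27 and -0.10 turned positive under scaling to the same total (0.12 and 0.24), upper quartile scaling (0.02 and 0.16) and relative to the 300 nearest genes (0.31 and 0.44).

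Glucocorticoids and oxidants also raise metallothionein genes, and lists of genes responsive to each were examined. Whether either had a part in the *Mt1* and *Mt2* levels here was not tested. Of 8 glucocorticoid-responsive genes listed, 6 had a value, and without AA 2 of these were higher and 2 lower by 2-fold or more. With AA, 1 was higher and 2 were lower. Of all genes, 4.96% were higher and 3.5% lower without AA, and 4.13% and 3.38% with AA. *Tsc22d3* had 0.717, 4.06, 0.719 and 3.999 FPKM, log2 ratios of 1.56 and 1.54. *Dusp1*, a MAP kinase phosphatase gene, had 12.1, 29.1, 13.4 and 27.1 FPKM, log2 ratios of 1.19 and 0.97, and with AA it passed 2-fold in 5 of 9 alternatives, which would make the count higher 2. In the other direction, *Sgk1*, a kinase gene, had 68.8, 23.7, 72.0 and 27.1 FPKM, log2 ratios of -1.50 and -1.38. *Fkbp5*, which encodes a co-chaperone of the glucocorticoid receptor, had 11.2, 3.58, 10.6 and 3.40 FPKM, log2 ratios of -1.42 and -1.40. The list therefore held genes of both directions, with a median log2 ratio of -0.07 without AA and 0.24 with AA.

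Of 8 metal and oxidant stress genes listed, 5 had a value. *Hmox1*, *Hspa1a* and *Hspa1b* had none, so their response is not known here. Among the 4 above the filter on low values, none passed 2-fold with GSK-J4. The gene under the filter was *Slc7a11*, with 0.033, 0.519, 0.061 and 0.930 FPKM. Its FPKM was 16.0-fold higher with GSK-J4 without AA and 15.2-fold higher with AA. With 1 added to each FPKM its log2 ratios were 0.56 and 0.86, and the precision of such low levels is not known. The median log2 ratio of the 4 was -0.04 without AA and 0.09 with AA, beside -0.17 and -0.16 for all genes. With 8.46% and 7.51% of all genes past 2-fold, a count of 0 among 4 is not read as a result. *Txnrd1*, the cytosolic thioredoxin reductase gene, had 107, 96.8, 98.9 and 105 FPKM, log2 ratios of -0.14 and 0.08. The sign of the former turned in 4 of 9 alternatives, with values from 0.03 after centring on the median to 0.47 relative to the 300 nearest genes.

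The genes most like *Mt1* and *Mt2* over the 4 libraries were found by the root mean square difference of log2(FPKM + 1) profiles, each centred on its own mean. It was taken over the 6561 genes that reached an FPKM of 5 in any library. The gene nearest to *Mt1* was *Mt2*, at 0.105. It was followed by the glycine transporter gene *Slc6a9* at 0.145, the glutathione-degrading enzyme gene *Chac1* at 0.150, the pseudokinase gene *Trib3* at 0.152 and the drug efflux pump gene *Abcb1b* at 0.182. The gene nearest to *Mt2* was *Chac1* at 0.0674, followed by *Mt1* at 0.105, *Slc6a9* at 0.114, *Fetub* at 0.131 and *Mef2b* at 0.146.

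These like genes were far less abundant than *Mt1* and *Mt2*, so their likeness depends in part on the 1 added to each FPKM. The FPKM of *Slc6a9* was 6.07-fold higher with GSK-J4 without AA and 7.70-fold higher with AA, beside 4.82-fold and 4.70-fold for *Mt1*. The search was not repeated with another added value. *Chac1* had 4.41, 21.6, 5.94 and 24.1 FPKM, and *Trib3* had 4.10, 28.2, 7.34 and 34.3 FPKM. *Abcb1b* had 8.35, 45.9, 7.96 and 42.2 FPKM, and *Slc6a9* had 1.11, 6.76, 1.15 and 8.82 FPKM. *Fetub* had 2.59, 12.6, 4.30 and 18.4 FPKM, and *Mef2b* had 1.25, 6.14, 1.46 and 8.39 FPKM. In each of them both GSK-J4 libraries lay above both DMSO libraries, which follows in large part from how they were chosen.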

How the data were processed

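Total RNA of LF2 ESCs was sequenced as single-end reads, with 1 library for each of 4 conditions, which were taken from the labels. Per the study's methods, the authors removed duplicate reads and ran TopHat2 and Cufflinks2, followed by CummeRbund and Genome Explorer, on the Maser platform, with mm10 named in the submitters' processing notes. Tool versions, strand and the scaling between libraries are not given in the sources used here. The deposited values are FPKM per coding sequence group, in 2 tables, 1 without and 1 with AA. Their headers say log10, but the values are linear. The tables also hold the authors' fold changes, p-values and q-values, which were not used.

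FPKM of the coding sequence groups that share a gene name were added up. Of 9936 genes, 157 had an estimate that failed in 1 table or both and were dropped, leaving 9779. Places by level and shares of summed FPKM are among these 9779. They leave out genes absent from the deposited values, such as *Hmox1*. Log2 ratios used a pseudocount of 1 and a minimum FPKM of 1 in 1 library of the pair, and counts used a 2-fold threshold. Read depth is unknown: steps among low values gave a relative depth for AA+DMSO of 0.795 of PBS+DMSO on 28.5% of 172 low genes only, which is too few to recover reads, so no counting interval is given. Named genes were the 6 genes described, in each list other than the cell type markers the genes past 2-fold with GSK-J4 (at most 4) or else the most abundant one, and the 5 genes most like *Mt1* and the 5 most like *Mt2*. The window around the metallothionein row was set to 100 kb after its values were seen, and 1 gene farther out is not reported here. Cell type markers were named after their values were seen. The genes described and the lists were chosen with earlier results of these data known. Alternatives were pseudocounts of 0.1 and 5, no filter, a minimum of 5 in 1 library or of 1 in both, thresholds of 1.5-fold and 4-fold, median centring, upper quartile scaling, equal totals and, chosen after seeing the data, subtraction of the median of the 300 genes nearest in level. Exons and transcript lengths are from GENCODE M21 (longest protein-coding transcript of the highest support level), and promoters from RefSeq on GRCm38.p6, where all 6 genes matched. Scripts were tested on simulated data and ran under Python 3.11.15 with numpy 2.4.6, pandas 2.3.3 and matplotlib 3.10.9.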

Additional observations from a re-analysis of the deposited data

Results flagged for a closer look

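The results in this section were picked out because a ratio had 1 sign in one setting and the opposite sign in the other. None of these differences was tested, since each rests on 1 library per condition.

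For GSK-J4, the log2 ratio of *Slc30a6* was 0.58 without AA and -1.30 with AA, a difference of -1.88, and it was the AA+GSK-J4 library, at 0.010 FPKM, that stood apart. *Atox1* went from 0.04 to -0.20, a difference of -0.25, and *Txnrd1* from -0.14 to 0.08, a difference of 0.22. The opposite signs of these 2 genes depend on the scaling. After scaling to the same total, *Atox1* had 0.43 and 0.13 and *Txnrd1* had 0.24 and 0.41.

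For AA, *Slc39a10* had a log2 ratio of -0.47 without GSK-J4 and 0.15 with it, a difference of 0.62. The difference was 0.48 for *Mt3*, from -0.13 to 0.35, and 0.33 for *Slc30a1*, from -0.10 to 0.24. For *Mtf1* it was -0.037, from 0.03 to -0.003, and 4 of 8 alternatives turned the sign of the latter. Among the other named genes, *Slc39a11* had the largest AA difference, -1.12, from 1.04 to -0.08, where the PBS+DMSO library was the low one. *Dusp1* differed by -0.23, from 0.13 to -0.10, *Txnrd1* by 0.22, from -0.11 to 0.11, and *Tsc22d3* by -0.019, from 0.001 to -0.018. At 0.717 and 0.719 FPKM in the DMSO libraries, *Tsc22d3* was under the filter on low values without GSK-J4. With GSK-J4, 3 of 8 alternatives turned the sign of its ratio. These AA values set separate tables side by side, and the scaling between them is not stated.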

How the results depend on the processing

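The GSK-J4 log2 ratios of *Mt1* stayed between 2.24 and 2.85 without AA and between 2.21 and 2.77 with AA over 9 alternatives, and those of *Mt2* between 2.05 and 2.64 and between 2.01 and 2.56. *Mt3* stayed between -2.34 and -1.40 without AA and between -1.77 and -1.11 with AA. Without AA, *Slc39a10* stayed between -1.88 and -1.20. With AA it ranged from -1.21 to -0.74 and was under 2-fold in 5 of 9 alternatives, while *Slc30a1* ranged from 0.62 to 1.16 and passed 2-fold in 4 of 9. The number of the 6 genes past the threshold with AA was 4, and it was 2 at 4-fold, 5 at 1.5-fold and 3 with a pseudocount of 5. In the 4 scaling alternatives it was again 4, but with *Slc30a1* past 2-fold and *Slc39a10* not. Without AA it was 3 at 4-fold and 4 in every other alternative. None of the 6 genes passed in the AA comparisons under any alternative. The share of all genes past the threshold ranged from 0.587% at 4-fold to 30.9% at 1.5-fold without AA, in place of 8.46%, and from 0.481% to 27.9% with AA, in place of 7.51%. For AA it ranged from 0.0452% to 4.31% without GSK-J4, in place of 1.3%, and from 0.0654% to 4.25% with GSK-J4, in place of 1.11%. With a pseudocount of 0.1 or 5 it was 13.6% or 2.7% for GSK-J4 without AA and 12.6% or 2.2% with AA.

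With a pseudocount of 5, which weighs most on low levels, the GSK-J4 ratios of *Slc39a11* (0.68), *Csrp1* (0.96), *Tsc22d3* (0.66), *Fkbp5* (-0.92), *Dusp1* (0.99), *Slc6a9* (0.94) and *Mef2b* (0.83) without AA fell below 2-fold, as did those of *Slc30a6* (-0.37), *Tsc22d3* (0.65) and *Fkbp5* (-0.89) with AA. No paired analysis was possible because each condition has 1 library. Depth is unknown, so the precision of low levels, such as those of *Mtf1*, *Mt4* and *Slc30a6*, cannot be given.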
